A study of Mus musculus with 12 samples.

Results

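miR-486-5p was the most abundant entry of the human miRNA table in all 12 serum small RNA libraries, although the sera were those of mice. It is a single mature miRNA, 1 of the 466 listed in the human tables, and was identified by its miRBase accession, MIMAT0002177. The miRNA was chosen by its share of the counts in these same human tables, so the shares, ranks and differences from the mouse tables below describe it and carry no test. Tests were made only on the change with time point and on the effect of depletion, which are not part of that rule of choice. However, the tests themselves were chosen with earlier results of these data known, so their p-values are not independent of the data.

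The libraries came from 6 sera of 3 female athymic NCr nude mice aged 4 to 6 weeks (mice 1046, 1047 and 1069). Nude mice lack a thymus and accept human grafts. Each mouse was bled before and 2 weeks after cells of SH-SY5Y, an established human neuroblastoma line, had been injected (1000000 cells per mouse) under the renal capsule. RNA from 50 μl of each serum was split into 2 aliquots, and 1 of them was depleted of 5′ tRNA fragments, which dominate murine serum libraries, with biotinylated DNA probes and streptavidin beads. This gave 4 groups of 3 libraries (before or after injection, depleted or undepleted). Later sera from mice without tumour cells were not analysed here, so the effects of the tumour cells and of the elapsed weeks cannot be told apart. The human tables held 1729906 to 3854909 counts per depleted library and 34472 to 188479 per undepleted library, and the smallest was the undepleted library of mouse 1069 before injection. Each library has a human and a mouse table made from the same reads, so a read can be counted in both.

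A miRNA hairpin is cut into a mature 5p and a 3p strand, and the retained strand guides the Argonaute proteins to messenger RNAs that pair with its seed, bases 2 to 8. The miR-486 hairpin lies inside the gene of ankyrin 1, a protein that anchors the red cell membrane to its skeleton. miR-486-5p is known as an abundant miRNA of red blood cells and striated muscle, and its level in serum or plasma rises when red cells break.

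In the mouse genome (GRCm38, GENCODE M21), Mir486 occupies chr8:23142555-23142682 (plus strand) and is intronic, lying within Ank1 (chr8:22974844-23150497, plus strand). It was spanned by 15 of 17 annotated Ank1 transcripts and overlapped 0 annotated exons of that gene. A second hairpin gene, Mir3107, is annotated at chr8:23142573-23142662 on the minus strand, and all 90 of its bases lie within Mir486. RefSeq lists mmu-mir-486a as a synonym of Mir486 and mmu-mir-486b as a synonym of Mir3107. The hairpins that could give mouse miR-486a and miR-486b are thus annotated at the same place on opposite strands.

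The miRNAs against which miR-486-5p is set below are shown here in their mouse form (RefSeq, GRCm38.p6, 5′ to 3′), with the seed in capitals, because they were its nearest rivals in abundance or the entries most and least like it across libraries. miR-25-3p (chr5:138165332-138165353, minus strand) and miR-92a-3p carry the same seed, and each of the others has a seed of its own.
miR-25-3p: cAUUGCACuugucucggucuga
miR-92a-3p: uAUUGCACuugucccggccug
miR-451a: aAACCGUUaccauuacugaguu
miR-16-5p: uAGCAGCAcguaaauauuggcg
miR-22-3p: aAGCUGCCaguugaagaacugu
miR-191-5p: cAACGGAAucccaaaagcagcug
miR-29a-3p: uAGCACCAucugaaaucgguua
miR-451a maps to chr11:78073186-78073207 (plus strand), miR-22-3p to chr11:75463772-75463793 (plus strand), miR-191-5p to chr9:108568325-108568347 (plus strand) and miR-29a-3p to chr6:31062673-31062694 (minus strand). miR-92a-3p and miR-16-5p each have 2 hairpin genes.

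First, the level of miR-486-5p was evaluated in every library. In the depleted libraries of mice 1046, 1047 and 1069, it had 1293394, 2088543 and 816898 counts before injection and 1099812, 1043659 and 999892 counts after injection. In the undepleted libraries of the same mice it had 94262, 84778 and 13712 counts before and 35176, 29716 and 23170 counts after injection. It ranked 1 in each of the 12 human tables. Sera drawn before any human cell was present held it at the highest shares.

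As a share of the human table, miR-486-5p made up 49.8%, 54.2% and 47.2% of the counts in the depleted libraries of the 3 mice before injection (50.4% ± 3.5, SD, n = 3). After injection these shares were 39.2%, 38.6% and 31.5% (36.4% ± 4.3, SD, n = 3). The depleted groups did not overlap, and the share was lower after injection in 3 of 3 mice, with differences of -10.6, -15.6 and -15.7 percentage points. In undepleted libraries the shares were 50.0%, 49.2% and 39.8% before injection (46.3% ± 5.7, SD, n = 3) and 34.8%, 37.4% and 32.8% after injection (35.0% ± 2.3, SD, n = 3). These groups did not overlap either, and the low value before injection belonged to the smallest library, that of mouse 1069. Over the 12 libraries the mean share was 42.0%. The 95% Wilson interval of a share reached at most 0.517 percentage points to either side, which covers counting error only, since PCR copies of reads are not independent molecules.

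**Figure D1:**
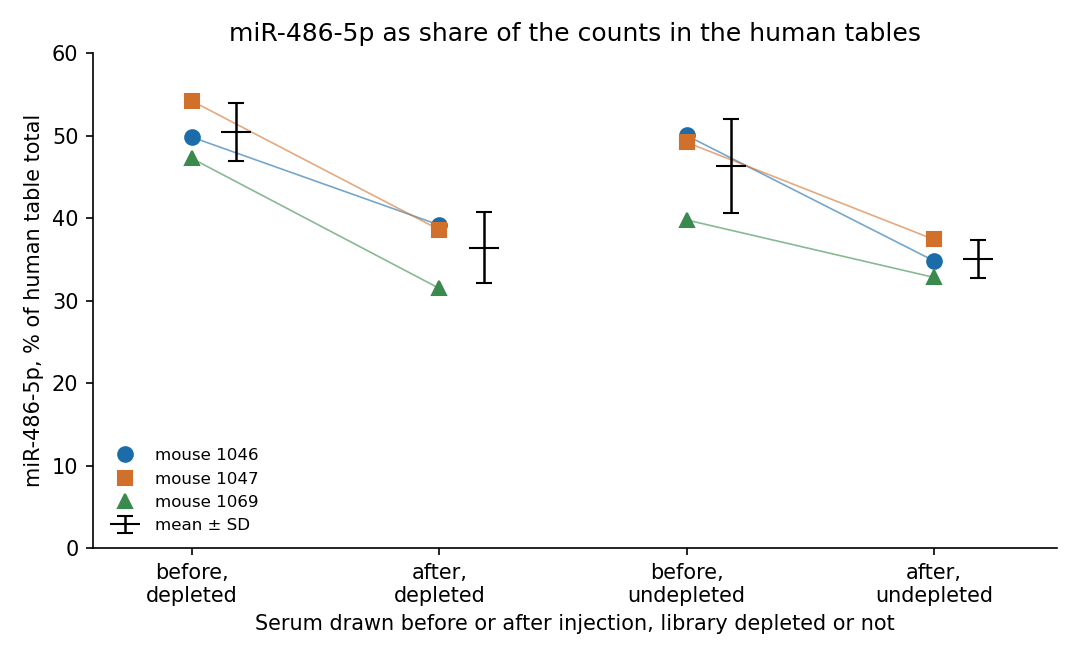
Share of miR-486-5p in the counts of the human table (vertical axis, percent) for each group of libraries (horizontal axis). Points are libraries, lines join the sera of a mouse within an arm, and black bars give the mean ± SD of 3 libraries. In both arms each mouse had a lower share after injection, and the lowest value before injection, 39.8%, was that of mouse 1069 without depletion.

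Expressed per count of all other human entries, miR-486-5p stood at 0.99, 1.18 and 0.89 in the depleted libraries of mice 1046, 1047 and 1069 before injection. After injection these values were 0.64, 0.63 and 0.46. In the undepleted libraries they were 1.0, 0.97 and 0.66 before and 0.53, 0.60 and 0.49 after injection. Each mouse had a lower value after injection, and undepleted mouse 1069 before injection, at 0.66, lay close to the highest later values. The ratio of the later to the earlier value was 0.65, 0.53 and 0.51 with depletion and 0.53, 0.62 and 0.74 without.

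The distance to the next entry also differed between the time points. Counts of miR-486-5p were 6.11 to 7.29 times those of the second entry in depleted libraries before injection and 2.36 to 4.13 times after injection. In undepleted libraries these ranges were 4.46 to 5.55 and 2.36 to 3.79. Before injection the second entry was miR-451a, an erythroid miRNA, miR-22-3p or miR-16-5p, and after injection it was miR-22-3p or miR-191-5p.

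Next, the order of the human entries was examined over the 12 libraries. Behind miR-486-5p at 42.0% came miR-22-3p with a mean share of 8.40%, miR-191-5p with 6.66%, miR-16-5p with 6.41%, miR-451a with 5.14%, miR-10b-5p with 3.60% and miR-92a-3p with 2.61%. The lowest share of miR-486-5p in any library, 31.5%, exceeded the highest share of any of these, 13.9% for miR-191-5p. Below the first place the order was not stable. In depleted libraries before injection, miR-451a (7.0% ± 0.76, SD, n = 3) and miR-22-3p (6.99% ± 0.79, SD, n = 3) differed by less than their spread, and after injection miR-22-3p (9.96% ± 0.81, SD, n = 3) and miR-191-5p (9.91% ± 3.15, SD, n = 3) did. miR-191-5p, a miRNA of many tissues, had moved up from 2.51% ± 0.05 (SD, n = 3) before injection. Counts compare entries as sequenced, and differences in ligation or amplification between miRNAs cannot be separated from their abundance.

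The mouse tables were then searched for the same miRNA. Mouse miR-486a-5p (MIMAT0003130) was not listed in any of the 12 libraries, nor was miR-486a-3p (MIMAT0017206). Mouse miR-486b-5p (MIMAT0014943) was listed in all of them, with 2901, 4487 and 1745 counts in the depleted libraries of mice 1046, 1047 and 1069 before injection and 2385, 2218 and 2020 after. Undepleted libraries held 269, 239 and 42 of its counts before and 104, 84 and 60 after injection. It ranked between 37 and 72 in the mouse tables, whereas human miR-486-5p ranked 1 in the human table of the same library.

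Set against the human count of the same library, mouse miR-486b-5p amounted to 0.202% to 0.224% in depleted and 0.259% to 0.306% in undepleted libraries. The ranges of the 2 arms did not overlap, while within an arm the time points lay close together. The human entry thus exceeded the mouse entry by orders of magnitude in every library.

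**Figure D2:**
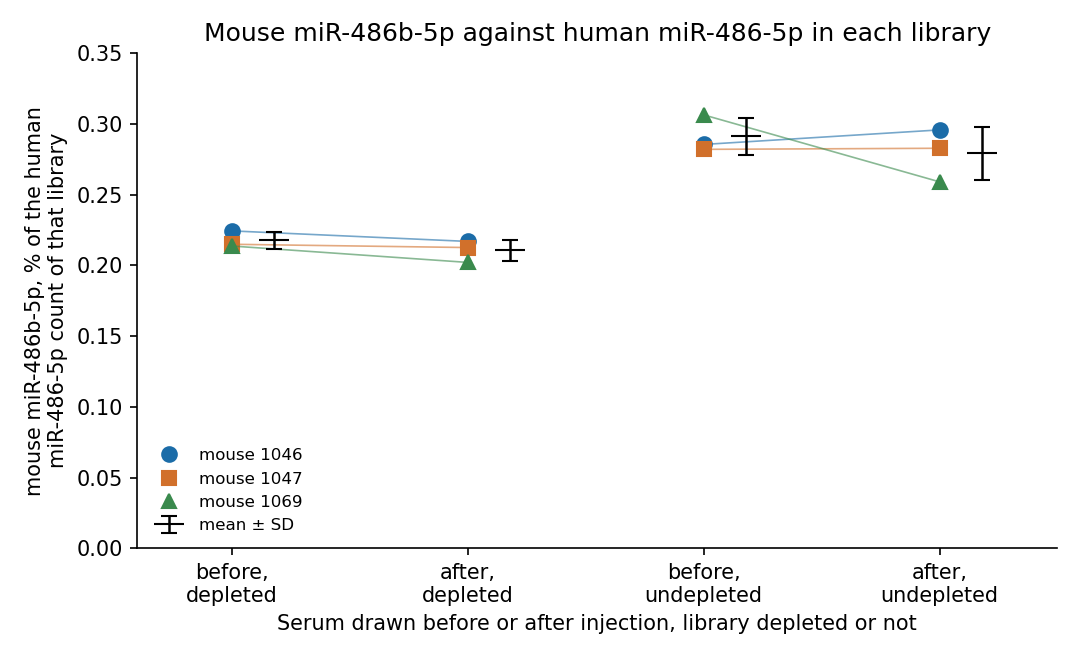
Mouse miR-486b-5p as percent of the human miR-486-5p count of the same library (vertical axis), by group (horizontal axis). Points are libraries, lines join the sera of a mouse and bars give the mean ± SD of 3 libraries. Depleted libraries lie between 0.202% and 0.224%, below all undepleted libraries at 0.259% to 0.306%.

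The human tables had larger totals than the mouse tables, by a factor of 1.62 to 2.12 before and 1.4 to 1.58 after injection. miR-486-5p equalled 102.7% to 103.6% of this difference in the 6 libraries before injection and 107.0% to 110.6% in the 6 after injection. Summed over all libraries, the human tables exceeded the mouse tables by 7236542 counts, and miR-486-5p held 7623012. With the mouse miR-486b-5p count subtracted, the percentages ran from 102.5% to 110.4%. The row therefore accounted for more than the whole difference, and without the miR-486 entries the direction turned.

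With miR-486 strands removed from both, the mouse tables were larger than the human tables by 1.92% to 2.91% before and 3.17% to 4.6% after injection. miR-92a-3p made up 23.2% of this surplus, with 556015 counts in the mouse tables and 474517 in the human tables. No other listed miRNA with both species examined here differed as much.

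**Figure D3:**
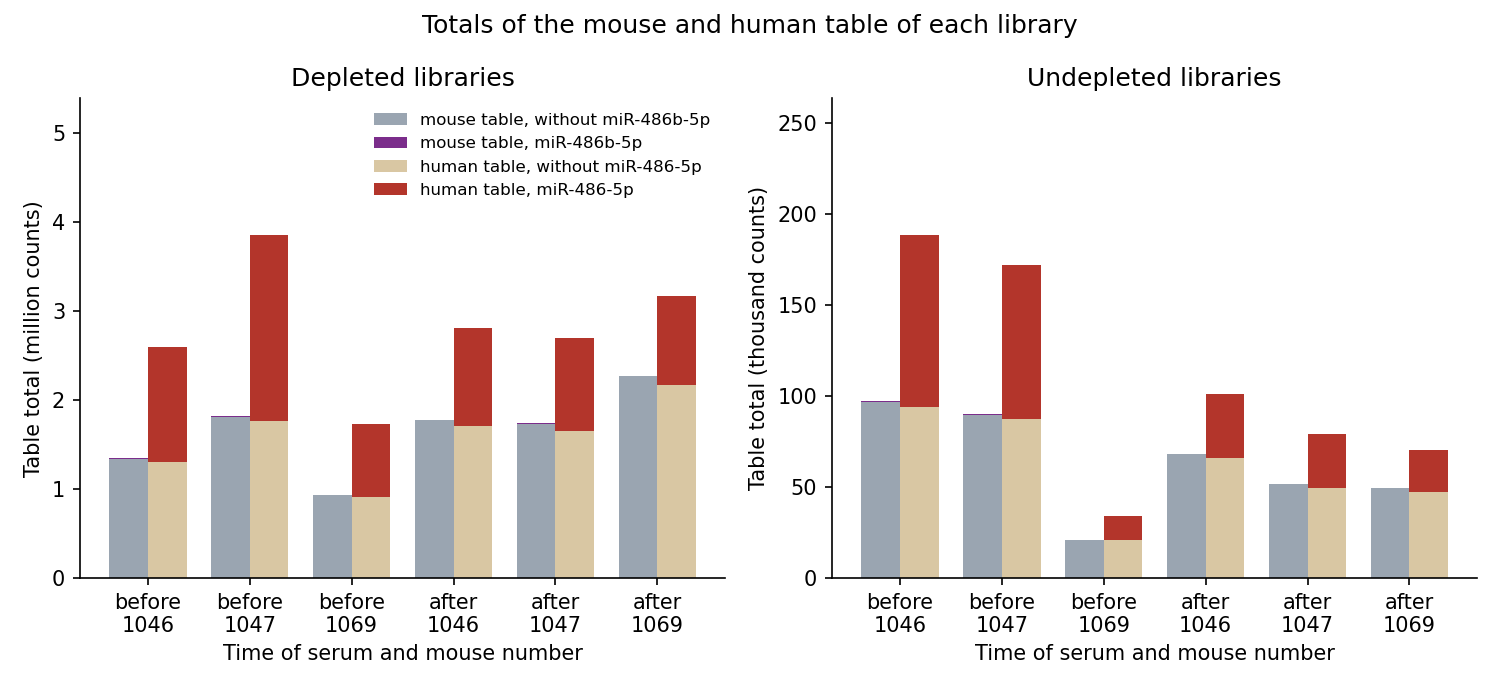
Totals of the mouse table (left bar of each pair) and the human table (right bar) for every library, on separate linear scales for depleted and undepleted libraries, by time point and mouse number. Red marks human miR-486-5p and purple, barely visible, mouse miR-486b-5p. Without the red part the human bar is slightly lower than the mouse bar in each of the 12 libraries.

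Such a gap between the species was uncommon among the miRNAs of the lists and named entries. Leaving out miR-486, 24 human entries had a listed mouse counterpart, and for 22 of them the counts differed by at most 10 in sum over the 12 libraries. For 14, among them miR-16-5p and miR-25-3p, they were identical in every library. The 2 exceptions were miR-92a-3p and miR-21-5p (255598 human and 257628 mouse counts). The pairs were assigned by hand and checked only by such agreement of counts, so the agreement is a description and not a separate check. For miR-206 and miR-208b-3p (14 human counts each in sum), miR-208a-3p (1) and miR-499a-5p (35), a margin of 10 counts says little. A further 3 listed human entries had no listed mouse counterpart. These were miR-126-3p, an endothelial miRNA with 11689 counts, miR-142-3p of leukocytes with 7081 counts, and the muscle miRNA miR-1-3p with 9 counts. The other strand of the miR-126 hairpin, miR-126-5p, was listed in both species with the same 66732 counts.

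Hairpins annotated on opposite strands of a locus, as at Mir486 and Mir3107, were also present at the loci of miR-126, miR-142 and miR-451a. The loci of the other entries were not examined for this. Mir126b (chr2:26591363-26591420, minus strand) lies within Mir126a (chr2:26591357-26591429, plus strand), and Mir142 (chr11:87756864-87756927, plus strand) lies within Mir142b (chr11:87756841-87756955, minus strand). Mir451a and Mir451b share the interval chr11:78073170-78073241 on opposite strands, and miR-451a was listed in both species with totals of 1012841 human and 1012848 mouse counts. The part of the antisense annotation in the gap was not tested, and how reads matching several loci were counted is not stated.

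The counts of the 3p strand in the human and mouse tables were then set against those of the 5p strand. Human miR-486-3p (MIMAT0004762) had 42 to 4230 counts and ranked between 35 and 66. Its counts were 445 to 494 times lower than those of human miR-486-5p in depleted libraries and 303 to 421 times lower in undepleted libraries. Mouse miR-486b-3p (MIMAT0014944) had more counts than the human 3p strand in all 12 libraries, 1.69 to 2.45 times as many with depletion and 1.4 to 2.22 times without. In the mouse tables the 5p strand was the rarer, at 0.43 to 0.67 counts per count of the 3p strand, the opposite of the human tables. Mouse miR-486b-5p had at most 0.306% of the human 5p count of the same library, and miR-486a-5p was not listed. The mouse ratio of 5p to 3p is therefore no measure of which strand is retained.

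To assess the change with time point, the whole human table was fitted with DESeq2 on the counts of each arm, with size factors taken from the median ratio over miRNAs. Entries with a p-value under 0.05 after Benjamini-Hochberg adjustment over the table were called. Normalised read counts of miR-486-5p in the depleted libraries of mice 1046, 1047 and 1069 were 1679163, 2311795 and 1202308 before injection and 901365, 903835 and 672440 after injection. The groups did not overlap and the level was lower in 3 of 3 mice. The log2 fold change was -0.98 (SE 0.27, DESeq2 adjusted p = 0.00581), short of 2-fold with the prior that shrinks fold changes. Without that prior it was -1.07 and in edgeR -1.09, both past 2-fold. In this fit 37 of 323 tested entries were called, or 11.5%, with 20 higher and 17 lower after injection. Among the 17 lower ones, miR-486-5p had the eighth largest decrease.

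Without depletion, normalised read counts were 59692, 58004 and 31810 before and 27495, 31626 and 25736 after injection. The values of mice 1046 and 1047 were well above the later ones, whereas that of mouse 1069 before injection exceeded the highest later value by a small margin only. The log2 fold change was -0.77 (SE 0.25, DESeq2 adjusted p = 0.0134), again lower in 3 of 3 mice. It was under 2-fold also without the prior (-0.82) and in edgeR (-0.94). Here 21 of 89 tested entries were called, or 23.6%, with 10 higher and 11 lower.

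The calls, but not the direction, differed with the scaling and with the mice in the fit. Scaled to table totals, of which miR-486-5p is itself a large part, the log2 fold changes were -0.46 (DESeq2 adjusted p = 0.0935) and -0.39 (DESeq2 adjusted p = 0.105), and neither was called. That scaling moved the median over all tested entries from -0.00 to 0.39 with depletion and from -0.05 to 0.22 without, and turned the calls into 62 higher and 3 lower, and 28 higher and 6 lower. Relative to those medians, miR-486-5p stood at -0.98 and -0.85 with depletion, and at -0.72 and -0.61 without, for the main scaling and table totals respectively. With depletion the call was lost without mouse 1046 at a log2 fold change of -1.0 (DESeq2 adjusted p = 0.127) and without mouse 1047 at -0.76 (DESeq2 adjusted p = 0.348), and was kept without mouse 1069 at -1.1. In undepleted libraries it was lost without mouse 1046 at -0.57 (DESeq2 adjusted p = 0.948), without mouse 1047 at -0.61 (DESeq2 adjusted p = 0.993), and with the quasi-likelihood test of edgeR at -0.94 (adjusted p = 0.0968). The direction was the same in each of these fits, and those without a mouse hold 2 libraries a group.

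The other strands and the mouse entries were examined in the same way. Human miR-486-3p fell with depletion (log2 fold change -0.96, SE 0.27, DESeq2 adjusted p = 0.00579) and without (-0.77, SE 0.30, DESeq2 adjusted p = 0.0416). Mouse miR-486b-5p had 3880, 4940 and 2782 normalised read counts before injection and 1914, 1835 and 1330 after in the depleted libraries, with no overlap. Its log2 fold change was -1.1 (SE 0.28, DESeq2 adjusted p = 0.00134), past 2-fold, in a fit that called 52 of 310 mouse entries, or 16.8%. This call was lost without mouse 1047 (DESeq2 adjusted p = 0.119).

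In undepleted libraries mouse miR-486b-5p fell from 168, 172 and 96.8 to 82.0, 87.2 and 65.3 normalised read counts, again without overlap, with a log2 fold change of -0.84 (SE 0.29, DESeq2 adjusted p = 0.0234). Of 108 mouse entries tested, 21 were called, or 19.4%. With the mouse as a block the call was lost (log2 fold change -0.79, DESeq2 adjusted p = 0.0939), as it was without mouse 1046 (0.62) or 1047 (0.998). Mouse miR-486b-3p fell with depletion (log2 fold change -1.25, DESeq2 adjusted p = 0.000921) and stood at -0.67 without it (DESeq2 adjusted p = 0.0653). The human and the mouse entries share libraries and partly reads, so their changes are not separate observations.

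The change of human miR-486-5p with time point did not differ detectably between the arms. The interaction of time point and depletion was -0.22 on the log2 scale (95% interval -0.98 to 0.54, DESeq2 adjusted p = 0.993). In this fit 0 of 463 entries were called, or 0%, 2 had an unadjusted p-value under 0.05 in DESeq2, and edgeR called 0 as well with 6 such entries. Neither fit paired the aliquots of a serum. With the serum as a block the interaction was -0.23 (SE 0.14, DESeq2 unadjusted p = 0.0901, adjusted p = 0.998), and 0 of 466 entries were called.

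The miRNAs of red blood cells were set beside miR-486-5p, from a list of 6. In depleted libraries 5 of the 6 were called lower after injection and 0 higher, where 11.5% of all tested entries were called (17 of 323 lower). Their median log2 fold change was -1.03 against -0.00 over all tested entries. miR-144-3p, cut from the same primary transcript as miR-451a, fell most (-1.54, SE 0.29, DESeq2 adjusted p = 2.3e-05). miR-451a, whose maturation bypasses Dicer, fell by 1.1 on the log2 scale (SE 0.28, DESeq2 adjusted p = 0.00301), and miR-16-5p, abundant in blood cells, by 0.98 (SE 0.26, DESeq2 adjusted p = 0.00371). miR-25-3p fell by 0.91 and miR-144-5p by 1.08. miR-92a-3p, which has the seed of miR-25-3p, stood at -0.20 (DESeq2 adjusted p = 0.763). In undepleted libraries 4 of the 6 were called lower and 0 higher, beside 23.6% called over all tested entries (11 of 89 lower). Not called there were miR-144-5p (-0.77) and miR-92a-3p (0.11). The median of the 6 was -0.89 against -0.05 over all tested entries. The counts of called red cell miRNAs varied with the mice in the fit, as did the calls over the whole table. With depletion 2 of the 6 were called lower without mouse 1046 (14 of 333 entries called in all), 1 without mouse 1047 (6 of 436) and 6 without mouse 1069 (48 of 253), and with table totals 2 were (65 of 287). Without depletion 1 was called lower without mouse 1046 (8 of 273), 0 without mouse 1047 (1 of 277) and 4 without mouse 1069 (22 of 130), all in DESeq2.

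The summed level of these 6 miRNAs, as percent of the human table without miR-486-5p, was 30.3% to 38.7% in depleted libraries before injection and 18.0% to 24.0% after, and 30.4% to 38.9% and 17.6% to 23.3% in undepleted libraries. A ratio used as an index of broken red cells, log2 of miR-451a over miR-23a-3p, was 6.82, 6.99 and 6.20 in the depleted libraries of the 3 mice before injection and 5.43, 5.12 and 4.52 after. In undepleted libraries it was 6.06, 6.34 and 5.93 before and 5.09, 4.67 and 4.04 after injection. Both measures moved with miR-486-5p, and their part in its change was not tested. Free haemoglobin of the sera had been measured by the authors, per the methods of the study, and is not used here. In serum, fewer cells of a type and less RNA released by each cannot be told apart.

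**Figure D4:**
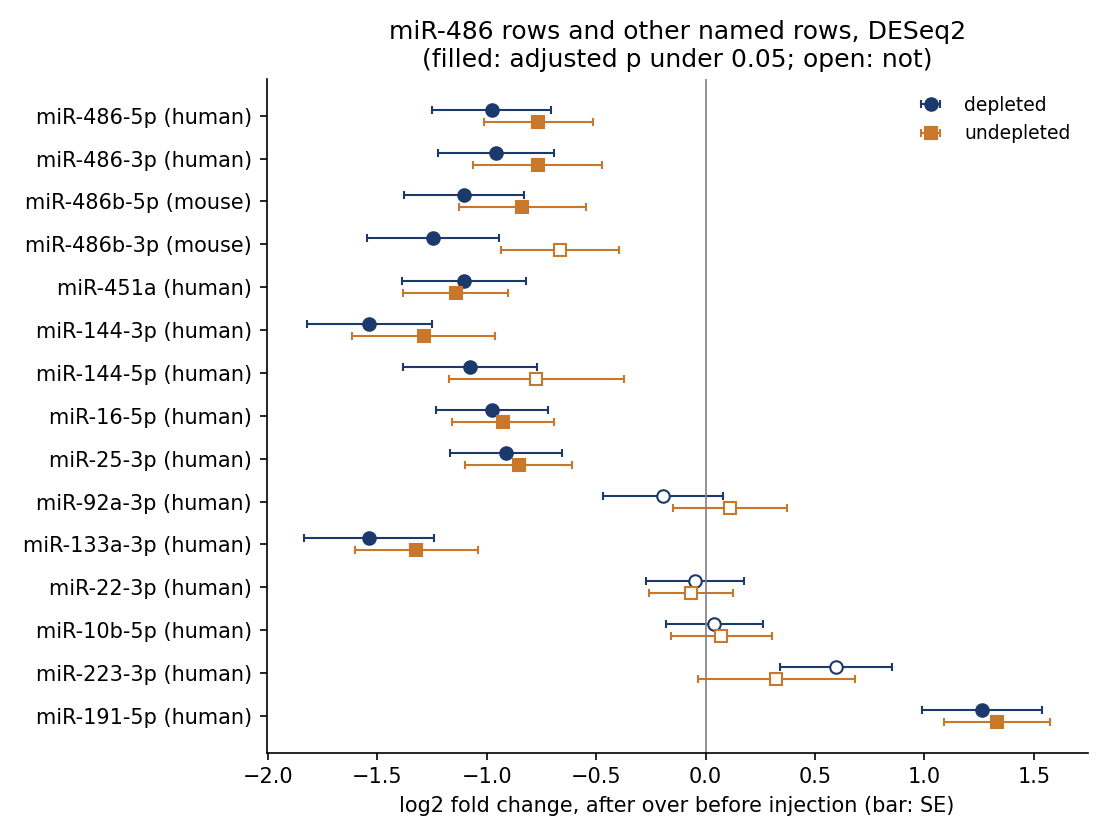
Log2 fold change after over before injection (horizontal axis, bars give the SE) of the miR-486 strands and other named miRNAs in depleted (blue circles) and undepleted libraries (orange squares), from DESeq2. Filled symbols passed an adjusted p-value of 0.05. The miR-486 strands lie between -0.67 and -1.25, among the red cell miRNAs miR-451a, miR-144, miR-16-5p and miR-25-3p, while miR-92a-3p and miR-22-3p lie near 0 and miR-191-5p lies above 1.

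Within a library, the ratio of miR-486-5p to miR-451a needs no size factor. Its log2 value was 2.85 ± 0.10 (SD, n = 3) in depleted libraries before injection and 2.99 ± 0.10 (SD, n = 3) after. The difference of 0.14 did not pass the test (exact permutation test, two-sided, p = 0.2), and the ratio was higher after injection in 3 of 3 mice. With 3 libraries against 3 no such test can give a p-value below 0.1. In undepleted libraries the log2 ratio was 3.01 ± 0.24 before and 3.46 ± 0.31 after injection (exact permutation test, two-sided, p = 0.2, n = 3 per group), and it was higher in 2 of 3 mice.

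Striated muscle, the other known source of miR-486, was examined with a list of 7 miRNAs. miR-133a-3p, a muscle miRNA, fell by 1.54 on the log2 scale in depleted libraries (SE 0.30, DESeq2 adjusted p = 3.26e-05) and by 1.32 in undepleted libraries (SE 0.28, DESeq2 adjusted p = 7.39e-05). It was the only called entry of the 5 tested with depletion and of the 1 tested without, and beside the 11.5% and 23.6% called over all tested entries these counts say little about the list. miR-133b was not listed in the human tables, and miR-1-3p, miR-206, miR-499a-5p, miR-208a-3p and miR-208b-3p had at most 13 counts in any library. The summed level of the list was 0.468% to 0.80% of the human table without miR-486-5p in depleted libraries before injection and 0.201% to 0.260% after, and its part in the change of miR-486-5p was not tested.

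A list of 4 miRNAs of leukocytes, platelets and endothelium held 0 called entries of 4 tested in either arm, with median log2 fold changes of 0.34 and 0.15. With 11.5% and 23.6% of all tested entries called, a count of 0 among 4 is near the background. With depletion miR-223-3p, a myeloid miRNA, stood at 0.60 (DESeq2 adjusted p = 0.118), miR-150-5p at 0.42, miR-126-3p at 0.27 and miR-142-3p at -0.24. Without depletion these 4 stood at 0.32, 0.43, -0.07 and -0.03, in the same order. The summed level of this list was 0.372% to 0.472% before and 0.572% to 0.645% after injection in depleted libraries.

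Finally, the effect of the depletion itself on miR-486-5p was assessed. Depleted aliquots held 13.7 to 59.6 times as many counts of miR-486-5p as the undepleted aliquot of the same serum (geometric mean 31.4, n = 6 sera). All other human entries together gave ratios of 13.8 to 45.9 (geometric mean 28.1). The share of miR-486-5p in the human table was higher with depletion in 4 of 6 sera, with differences from -1.3 to 7.4 percentage points. The largest gain was that of mouse 1069 before injection, whose undepleted library was the smallest. In a fit of all 12 libraries the log2 fold change of depleted over undepleted was 0.06 (SE 0.18, 95% interval -0.29 to 0.42, DESeq2 adjusted p = 0.870), while 45 of 414 entries were called, or 10.9%. That fit did not pair the aliquots of a serum. With the serum as a block, the log2 fold change of miR-486-5p was 0.07 (SE 0.08, DESeq2 adjusted p = 0.771).

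Mouse miR-486b-5p gained less from the depletion than the human entry of the same library. Its raw ratios were 10.8 to 41.5 (geometric mean 23.6). The log2 ratio of mouse miR-486b-5p to human miR-486-5p was lower in the depleted aliquot in 6 of 6 sera, by 0.41 ± 0.06 (SD, n = 6 sera), and an exact sign-flip permutation test gave p = 0.03125 (two-sided), the smallest value that 6 pairs allow. In the DESeq2 fit of the mouse tables the log2 fold change of miR-486b-5p was -0.38 (SE 0.19, adjusted p = 0.199) and was not called, in a fit that called 55 of 383 entries, or 14.4%. With the serum as a block it was called (log2 fold change -0.37, DESeq2 adjusted p = 0.000417). Between time points the same ratio changed by -0.05 in depleted libraries (exact permutation test, two-sided, p = 0.4, n = 3 per group).

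The log2 ratio of miR-486-5p to miR-451a was lower with depletion in 5 of 6 sera, by 0.31 ± 0.31 (SD, n = 6 sera), and this difference did not pass an exact sign-flip permutation test (two-sided, p = 0.09375). The differences of single sera ran from -0.66 to 0.18.

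To find the miRNAs whose pattern was most like that of miR-486-5p, the log2 level per count of the human table without miR-486-5p was correlated over the 12 libraries, for 38 entries with at least 50 counts in every library. All levels share this denominator, and both aliquots of a serum are included, so the values are descriptions without a test. The closest was miR-25-3p (Pearson r = 0.977), followed by miR-451a (0.911), miR-133a-3p (0.899), miR-93-5p (0.891), from the same cluster as miR-25-3p, and miR-140-3p (0.875). Of the 38 entries, 6 had r above 0.8 and 21 had r below 0.

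miR-25-3p followed miR-486-5p also within groups, with r = 0.966 after subtraction of the group means, whereas for miR-451a this value was 0.682 and for miR-133a-3p 0.428. The log2 level of miR-25-3p was -4.74, -4.68 and -4.94 in the depleted libraries of mice 1046, 1047 and 1069 before injection, where miR-486-5p stood at -0.01, 0.24 and -0.16. After injection miR-25-3p stood at -5.41, -5.46 and -5.77 and miR-486-5p at -0.64, -0.67 and -1.12. In both miRNAs mouse 1069 had the lowest level at either time point. miR-92a-3p, with the same seed as miR-25-3p, had r = 0.141 over the 12 libraries and 0.851 within groups.

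The least alike were miR-29a-3p (r = -0.930), miR-191-5p (-0.869), miR-21-5p (-0.862), miR-126-5p (-0.779) and miR-26a-5p (-0.751). miR-29a-3p, which targets collagen transcripts, remained opposed to miR-486-5p within groups (r = -0.853), while for miR-191-5p the value within groups was -0.160. In the time point fits miR-191-5p rose by a log2 fold change of 1.26 with depletion (DESeq2 adjusted p = 0.000256) and 1.33 without (DESeq2 adjusted p = 3.07e-06), whereas miR-29a-3p stood at 0.52 and 0.48 and was not called.

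**Figure D5:**
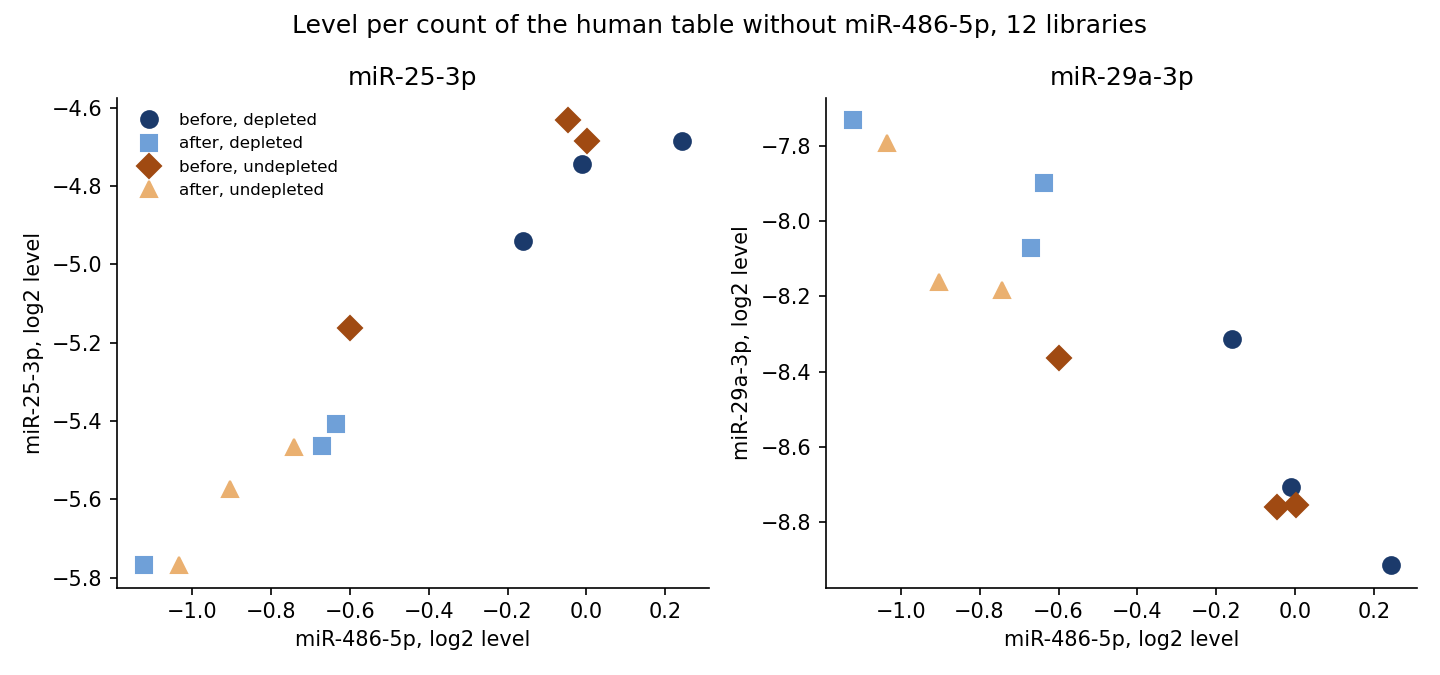
Log2 level per count of the human table without miR-486-5p, for miR-486-5p (horizontal axes) against miR-25-3p (left) and miR-29a-3p (right), in 12 libraries marked by group. miR-25-3p rises with miR-486-5p across all libraries (r = 0.977) and miR-29a-3p falls (r = -0.930), with sera before injection at the right and after injection at the left.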

How the data were processed

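The data were read counts for each mature miRNA in 12 serum libraries, deposited by the authors as a human and a mouse table per library. According to the methods and the labels, the authors trimmed adaptors with Cutadapt 1.8.1, filtered on quality with the FASTX-Toolkit, mapped with Bowtie 1.1.2 without mismatches and assigned reads by overlap with miRBase coordinates on GRCm38/mm10 or GRCh37/hg19. The counts are not normalized. An unlisted miRNA was taken as 0. A read matching both genomes can be counted in both tables, so a human entry need not stem from human RNA. How multiply mapping reads were counted is not given in the sources used here. The tables give accessions only. The study states that of mmu-miR-16-5p, and the other names were assigned by hand from miRBase nomenclature. Pairs of human and mouse entries were checked only by near-identical counts. Loci are from GENCODE M21, sequences from RefSeq.

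miR-486-5p, the lists of cell type miRNAs and the tests were chosen with earlier results of these data known. Named were the miR-486 strands, the 5 human entries of highest mean share after miR-486-5p, the 5 most and 5 least like it, and the lists. Whole tables were fitted with DESeq2 1.42.0 in R 4.3.3 with median-of-ratios size factors and independent filtering. A prior centred on zero pulled log2 fold changes towards 0, except for the interaction. The term was time point, with depletion added for all 12 libraries. Alternatives were edgeR 4.0.16, TMM factors, table totals, a minimum of 4 counts in 3 libraries, no prior, size factors from the mouse tables, a block for the mouse or serum, and leaving out each mouse. The fits were tested on simulated data. Likeness used log2(count + 1). Other values were computed in Python 3.11.15 with SciPy 1.17.1.

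The labels pair libraries by mouse, and the study describes the depleted and undepleted samples of a serum as the same RNA. Deviations from group means correlated over 39 human entries with r = 0.73 to 0.95 between aliquots of a serum, and with mean r = -0.02 (depleted) and -0.05 (undepleted) between time points of a mouse.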

Additional observations from a re-analysis of the deposited data

How the results depend on the processing

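For miR-486 the main values were recomputed under 90 alternatives, 57 of them other than leaving out a mouse. Direction was kept in each of these 90, and in 77 no change in the side of the threshold was recorded. Some of these 77 could not have shown such a change. The log2 ratios without a mouse were given no p-value. The log2 ratios between time points could not reach p-values below 0.1 (exact permutation test, 3 libraries against 3) or 0.25 (exact sign-flip permutation test, 3 pairs). Scaling to table totals, of which miR-486-5p is a large part, ended its calls in the human tables after against before injection. The log2 fold changes were then -0.46 with and -0.39 without depletion. With miR-486-5p left out of the totals they were -0.78 and -0.66, and both were called. edgeR gave -0.94 without depletion, not called. With a replicate block, mouse miR-486b-5p without depletion was no longer called (-0.79), and its difference between depleted and undepleted aliquots was called (-0.37). The block changed no other call of a miR-486 value. The cause of the changes named here was not tested.

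Leaving out each mouse in turn gave log2 fold changes after against before injection of -1.1 to -0.76 (human miR-486-5p, depleted), -0.97 to -0.57 (human, undepleted), -1.18 to -0.89 (mouse miR-486b-5p, depleted) and -0.92 to -0.68 (mouse, undepleted). For the depletion effect the range was 0.03 to 0.10 in the human and -0.383 to -0.366 in the mouse tables, where the last became a call without mouse 1069 (-0.37, adjusted p = 0.00856 in DESeq2).

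Counts of called entries moved by over 1.5 times with table totals, from 37 to 65 (human, depleted) and from 21 to 34 (human, undepleted), and with table totals without miR-486-5p to 56 (human, depleted). Leaving out a mouse gave 6 to 48, 1 to 22, 11 to 71 and 1 to 25 called entries in the 4 time point fits (human depleted, human undepleted, mouse depleted, mouse undepleted), and 23 to 56 (human) and 24 to 66 (mouse) in the depletion fits. The counts of red cell miRNAs without single mice were chosen after seeing the data. Undepleted libraries, with 34472 human counts in the smallest, held 42 counts of mouse miR-486b-5p there, which limits the precision of its values.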

Other observations

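The remaining entries most and least like miR-486-5p were also looked up in the fits after against before injection. miR-93-5p, an entry of the miR-25 cluster, had log2 fold changes of -0.74 with depletion (DESeq2 adjusted p = 0.0567) and -0.78 without (DESeq2 adjusted p = 0.00392), where it was called. miR-30a-5p fell in both arms (-0.89, DESeq2 adjusted p = 0.0209, and -0.60, DESeq2 adjusted p = 0.0416). miR-140-3p stood at -0.50 and -0.56 and was called in neither. Of the least alike, miR-21-5p stood at 0.42 and 0.48, miR-126-5p at 0.25 and 0.26, and miR-26a-5p at 0.38 and 0.34, and none of these 3 was called in either arm.

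Added to the mouse total of its own library, the human miR-486-5p count would make up 30.6% to 53.4% of that sum.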
